A study of Mus musculus with 8 samples.

Results

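The 9 genes described here encode receptors for BMP, activin and TGFβ ligands: Bmpr1a, Bmpr1b, Acvr1, Tgfbr1, Bmpr2, Acvr2a, Acvr2b, Tgfbr2 and Tgfbr3. They were taken by name from 22350 protein-coding genes of the mouse, and each was given every SMAD4 peak whose centre lay within 100 kb of its 5′ end. Coordinates are those of mm9, and genes are those of GENCODE vM1. SMAD4 was precipitated with the M2 anti-FLAG antibody from NMRI embryos whose endogenous Smad4 carries a 3xFLAG tag (genotype label Smad4Flag). The study has 8 samples, which are 2 SMAD4 ChIP and 2 input samples for each of 2 stages. About 80 embryos per replicate gave the E9.5 tissue, forelimb buds with attached trunk collected at E9.75 by the protocol, and about 100 gave the E10.5 tissue, fore- and hindlimb buds, so the stage and the dissected tissue cannot be told apart. The labels of the E10.5 samples differ on this point. Their source label names the forelimb bud, as for all samples, while their tissue label, followed here, names fore- and hindlimb buds. All samples, inputs included, carry the tagged allele, and the tissue is a mixture of mesenchyme, ectoderm and, at E9.5, trunk. Each stage is represented by 1 list of peaks (2073 peaks for E9.5, 6185 for E10.5) in which both replicates had been combined. No value therefore has an error between replicates, and no difference between the stages was tested. Absence of a peak says only that none was called at this depth, which is unknown.

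BMP and TGFβ ligands bind complexes of type I and type II receptors, which are transmembrane serine/threonine kinases. The type II receptor phosphorylates the type I receptor, and the type I receptor then phosphorylates the receptor SMADs that enter the nucleus with SMAD4. BMPR1A, BMPR1B and ACVR1 are type I receptors for BMPs, and TGFBR1 is the type I receptor for TGFβ. BMPR2 is the dedicated BMP type II receptor, ACVR2A and ACVR2B bind activins as well as BMPs, and TGFBR2 binds TGFβ. TGFBR3, or betaglycan, has no kinase domain and presents ligand to the signalling receptors. In the limb bud, BMPR1A is required for formation of the apical ectodermal ridge, and BMPR1B acts in the condensing digit skeleton.

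SMAD4 peaks were found near 2 receptor genes at E9.5 and near 6 at E10.5. The 2 genes at E9.5 were Bmpr2 and Acvr2a, both of the type II class. The 6 genes at E10.5 were Bmpr2, Acvr2b, Tgfbr2, Bmpr1a, Acvr1 and Tgfbr1, and Bmpr2 was the only member with a peak at both stages. Bmpr1b and Tgfbr3 had no peak within 100 kb in either list. The lists differ in length, and with the E10.5 list shortened to its 2073 best-ranked peaks, 4 of the 9 members kept a peak there (Acvr2b, Bmpr1a, Bmpr2 and Tgfbr1), beside 28% of all genes, while Acvr1 and Tgfbr2 did not. With the distance widened to 200 kb, 4 of 9 members had a peak in the earlier list, beside 34.5% of all genes, and 6 of 9 in the later list, beside 67.6%. At E9.5 the members' share was 22.2%, beside 20.5% for the 22350 protein-coding genes. At E10.5 it was 66.7%, beside 52.9%. Both shares are near this background and are no result about the receptors as a group. The pattern of Bmpr2, with a peak in both lists, was that of 14.7% of all genes. The pattern of Acvr2a (E9.5 only) was that of 5.86%, that of the 5 members with E10.5 peaks alone was that of 38.3%, and 41.2% of all genes had no peak in either list.

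**Figure D1:**
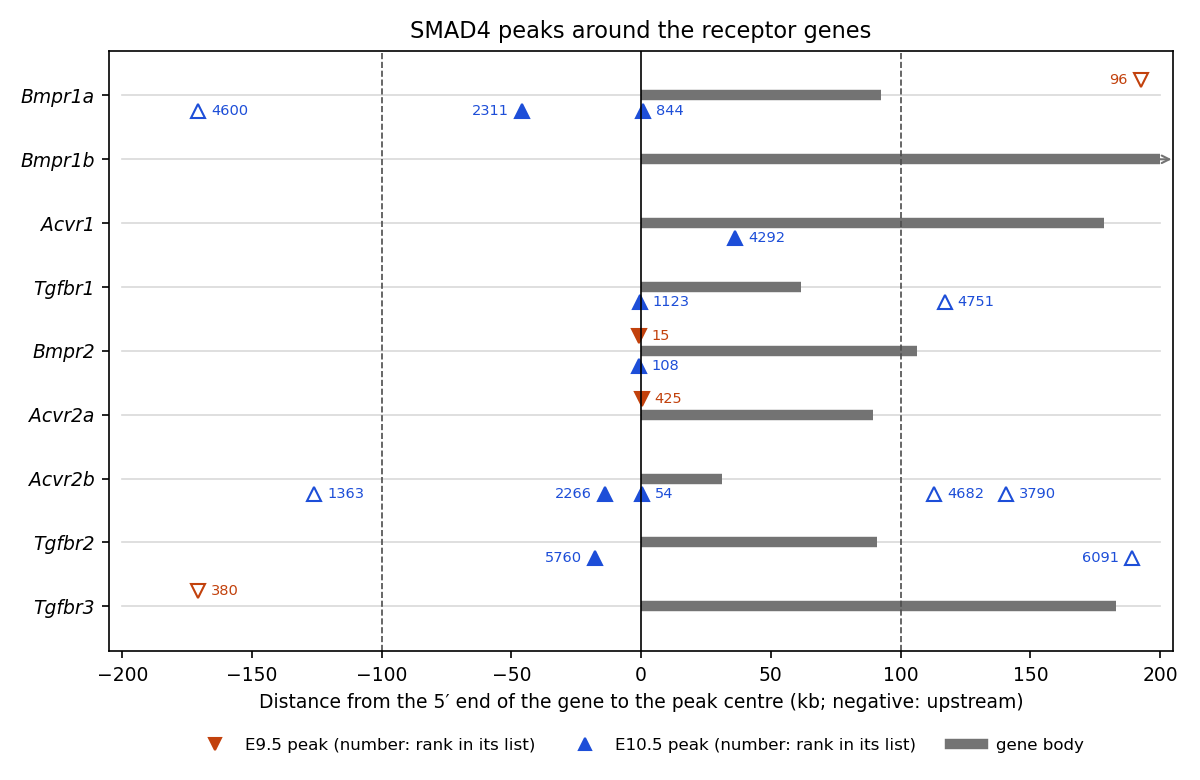
Position of every SMAD4 peak within 200 kb of the 9 receptor genes, with the distance from the 5′ end of the gene to the peak centre in kb on the horizontal axis. Filled symbols lie within 100 kb (dashed lines) and open symbols beyond, numbers give the rank of the peak in its list, and grey bars are gene bodies. Of the 10 filled symbols, 6 stand for peaks that cover the 5′ end and are centred within 5 kb of it. Of all peaks, 25.7% of the E9.5 list and 41.0% of the E10.5 list are centred within 5 kb of a protein-coding 5′ end.

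In total, 10 peaks fell within 100 kb of a member, with 2 at E9.5 and 8 at E10.5. Both peaks of the E9.5 list covered the annotated 5′ end of the receptor gene, as did 4 of the 8 in the E10.5 list. These were also the member peaks centred within 5 kb of the 5′ end, 2 of 2 and 4 of 8. Of all peaks, 25.7% at E9.5 and 41.0% at E10.5 were centred within 5 kb of a protein-coding 5′ end. The 4 of 8 is near that share, and the 2 of 2 lies above it but rests on 2 peaks. The share of all peaks that cover a 5′ end was not counted. Within 5 kb, 2 of the 9 members (Bmpr2 and Acvr2a; 22.2%) had a peak in the earlier list, beside 2.64% of all genes. In the later list these were 4 of 9 (Acvr2b, Bmpr1a, Bmpr2 and Tgfbr1; 44.4%), beside 13% of all genes. This narrower distance was chosen after the positions had been seen. The outermost peak inside the window was that at -45.9 kb of Bmpr1a (score 65.3), and the next one outside it was an E10.5 peak 113 kb from Acvr2b (score 52.2).

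Bmpr2 (chr1:59821481-59927703, plus strand) had the best-ranked peak of the group. This peak, chr1:59819067-59821906, had a score of 439 and rank 15 of 2073, and its centre lay -995 bp from the 5′ end, where negative distances are upstream. The score is the authors' value for a peak and was used only to rank peaks within a list and to set a threshold. At E10.5 the peak chr1:59819063-59821948 had a score of 151 and rank 108 of 6185, with its centre at -976 bp. The 2 intervals are nearly the same. They overlapped by 2840 bp, which is 100% of the E9.5 peak and 98.4% of the E10.5 peak, with starts 4 bp, ends 42 bp and centres 19 bp apart. Of the 4586 genes with an E9.5 peak within 100 kb, 54 had a better best peak than Bmpr2, and at E10.5 this was true of 432 of 11830 genes. A peak overlapping one of the other stage was present at 5.52% of all genes and, among the members, only at Bmpr2.

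Most of the Bmpr2 peak lies upstream of the gene. It reached 2414 bp upstream and 425 bp downstream of the 5′ end at E9.5, and 2418 and 467 bp at E10.5. No protein-coding gene lies at its centre. It was wide for its list at E9.5 (2840 bp, wider than or equal to 92.4% of the peaks) and of ordinary width at E10.5 (2886 bp, 57.3%). SMAD proteins bind the SMAD box, CAGAC on one strand and GTCTG on the other, and also a GC-rich element, GGCGCC. The 300 bp around the centre of the Bmpr2 peak held 3 SMAD boxes at both stages, 2 of which follow each other without a gap. Sequences are shown on the strand of the gene (mm9) with the SMAD boxes in capitals, because they are the boxes nearest to the centre of the only region found at both stages.
Bmpr2 box, chr1:59820369-59820398: ccgggagcgcctCAGACtggcagctgcggc
Bmpr2 tandem boxes, chr1:59820404-59820433: ccccctttgtGTCTGGTCTGcttggaaccg

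The tandem lies -1063 bp from the 5′ end of Bmpr2 and -68 and -87 bp from the E9.5 and E10.5 centres. The last G of its first box and the second box together form the extended SMAD box (CAGACC, or GGTCTG). The SMAD box CAGAC repeated directly, with no base between the repeats and on either strand, was present in the central 300 bp of 4 of 2073 peaks at E9.5 (0.193%) and of 12 of 6185 at E10.5 (0.194%). This sequence was looked up in the lists after it had been seen at Bmpr2, and the shares are given as a description. The whole peak held 7 SMAD boxes and 4 GC-rich elements at each stage. Its density of boxes, 2.46 per kb in the earlier and 2.43 per kb in the later list, was below the medians of all peaks, 2.87 and 2.74 per kb.

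Acvr2a (chr2:48669629-48758789, plus strand), the activin type II receptor gene, had an E9.5 peak and none within 100 kb at E10.5. The peak chr2:48669034-48670574 had a score of 72.8 and rank 425 of 2073, and its centre fell 175 bp downstream of the 5′ end, into the UTR of exon 1 of transcript Acvr2a-001. It was 1541 bp wide. Of the 22350 protein-coding genes, 169 were closer to a peak of this list. The nearest E10.5 peak was 458 kb away, and 18246 genes had a closer one. The central 300 bp had 0 SMAD boxes and 1 GC-rich element, and the nearest of the 2 boxes of the peak was 361 bp from the centre. The GC-rich element (in capitals) lies 105 bp from the centre and is shown as the only SMAD sequence in the middle of this peak.
Acvr2a GC-rich element, chr2:48669895-48669924: cgggcggctgcgGGCGCCgccgccgccgcc

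Acvr2b (chr9:119311562-119342619, plus strand), the other activin type II receptor gene, had 2 peaks at E10.5, and its nearest E9.5 peak was 270 kb away. The better one, chr9:119309981-119313597, had a score of 189 and rank 54 of 6185, the best rank of any receptor gene peak at this stage. Its centre lay 227 bp downstream of the 5′ end, in an intron, and the peak reached 1581 bp upstream and 2035 bp downstream. Of the genes with an E10.5 peak, 203 of 11830 had a better best peak. The second peak, chr9:119296869-119298439, had a score of 65.6 and rank 2266, and lay at -13.9 kb in an intron of the neighbouring gene Xylb (chr9:119266499-119302438). The 5′ end of Acvr2b was nevertheless the nearest of any protein-coding gene to this peak.

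The 2 Acvr2b peaks differed in sequence. The central 300 bp of the peak at the 5′ end had a GC content of 72.7%, 3 GC-rich elements and 0 SMAD boxes. Those of the upstream peak had a GC content of 53.0%, 0 GC-rich elements and 2 SMAD boxes. The site closest to each centre is shown, with the element or the box in capitals.
Acvr2b GC-rich element at the 5′ end, chr9:119311783-119311812: ccccgcggcctcGGCGCCgcgccacctgcc
Acvr2b upstream box, chr9:119297719-119297748: aaagagagcagaGTCTGgaaggttctgaat

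Tgfbr2 (chr9:115993415-116084383, minus strand), the TGFβ type II receptor gene, had 1 peak, at E10.5. It lay at chr9:116101054-116103175, -17.7 kb from the 5′ end and outside any protein-coding gene. With a score of 41.4 and rank 5760 of 6185 it was the weakest peak of the group, at 93.1% of its list counted from the best. It is the only member peak scored under 50. Its central 300 bp had neither a SMAD box nor a GC-rich element. At E9.5 the nearest peak was 1458 kb away. In the E10.5 list the 4 type II receptor genes ranged from rank 54 at Acvr2b and rank 108 at Bmpr2 to rank 5760 at Tgfbr2 and no peak at Acvr2a. With peaks scored 100 or more, 1 member (Bmpr2) was left in the E9.5 list, beside 3.04% of all genes, and 2 (Acvr2b and Bmpr2) in the E10.5 list, beside 8.77%.

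**Figure D2:**
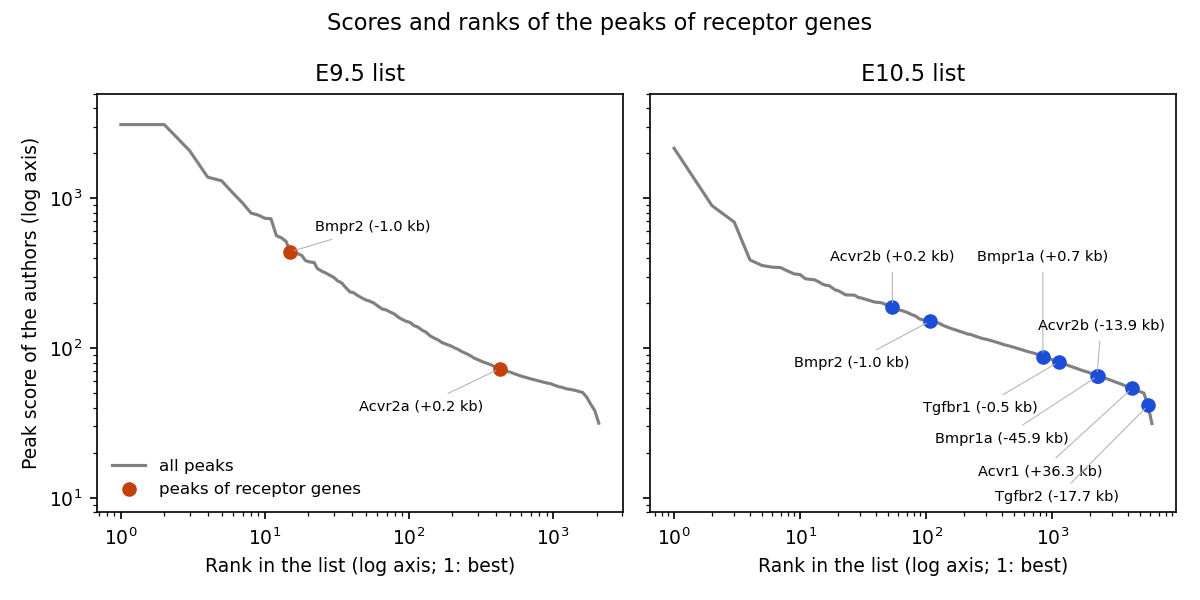
Score of the authors against rank for all peaks of each list (grey line, both axes logarithmic) and for the 10 peaks of receptor genes (points), with the distance to the 5′ end in kb in brackets. Bmpr2 stands at rank 15 of the E9.5 list, and Acvr2b and Bmpr2 at ranks 54 and 108 of the E10.5 list, while that of Acvr1 is at rank 4292 and that of Tgfbr2 at rank 5760 of 6185.

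No type I receptor gene had an E9.5 peak within 100 kb, and 3 of the 4 had an E10.5 peak. With 20.5% and 52.9% of all genes having one, counts of 4 genes do not set this class apart. At Bmpr1a (chr14:35223920-35316527, minus strand), a BMP type I receptor gene, the E10.5 peak chr14:35314964-35316738 had a score of 87.8 and rank 844 of 6185. Its centre was 676 bp downstream of the 5′ end of the gene and 0.022 kb from that of transcript Bmpr1a-001, in the UTR of its exon 1. The gene has 4 annotated transcripts, and the peak covered 3 distinct transcript starts. A second E10.5 peak, chr14:35361563-35363325, had a score of 65.3 and rank 2311 at -45.9 kb. It lies in an intron of the upstream gene Ldb3 (chr14:35339885-35401867), and the 5′ end of 9230112D13Rik is closer to it, at 26.5 kb, than that of Bmpr1a. The nearest E9.5 peak, 193 kb downstream of the 5′ end and beyond the gene, lies at the start of Glud1, 0.062 kb from its 5′ end.

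The Bmpr1a peak at the 5′ end had a GC content of 79.7% in its central 300 bp, more than or equal to 98.2% of the E10.5 peaks. It held 5 GC-rich elements, 2 of them in the central 300 bp, and 2 SMAD boxes, the nearer of which was 702 bp from the centre. The element nearest to the centre is shown with its letters in capitals.
Bmpr1a GC-rich element, chr14:35315913-35315942: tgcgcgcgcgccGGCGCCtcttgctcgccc

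Tgfbr1 (chr4:47366094-47427803, plus strand), the type I receptor gene of the TGFβ branch, had the E10.5 peak chr4:47363990-47367170 with a score of 80.7 and rank 1123. The peak was 3181 bp wide, was centred -514 bp from the 5′ end and covered 4 distinct transcript starts of a gene with 5 annotated transcripts. It held 12 SMAD boxes, the most among the 6 peaks at the 5′ end of a member, 2 of them in the central 300 bp, and 4 GC-rich elements. The box nearest to the centre, at -51 bp, is part of an extended SMAD box, which is shown in capitals. The nearest E9.5 peak was 241 kb away.
Tgfbr1 extended box, chr4:47365514-47365543: agaggacgacgaGGTCTGgggcggacgtgg

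Acvr1 (chr2:58241055-58419568, minus strand) encodes a BMP type I receptor and had 1 peak at E10.5, in an intron. The peak chr2:58381738-58384709 had a score of 53.7 and rank 4292 and was centred 36.3 kb downstream of the 5′ end. The gene has 6 annotated transcripts, and the closest start, that of Acvr1-005, was 7.63 kb from the centre. The peak held 10 SMAD boxes and 0 GC-rich elements, and none of the boxes was in the central 300 bp, whose GC content was 46.3%. At E9.5 the nearest peak was 580 kb away.

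Bmpr1b (chr3:141500100-141832389, minus strand) and Tgfbr3 (chr5:107535589-107718648, minus strand) were without a peak in the window. For Bmpr1b, the longest gene of the group (332 kb), the nearest peak was 2551 kb away in the E9.5 list, and that of the E10.5 list 596 kb away. These distances exceed those of 20619 and 19015 of the 22350 protein-coding genes. There is 0 further protein-coding 5′ end within 100 kb of that of Bmpr1b, where the median gene has 3. For Tgfbr3 the nearest E9.5 peak was 171 kb away (score 76.7, rank 380), and the nearest of the later list 308 kb away. The former, chr5:107889003-107889633, is nearer to the 5′ end of Btbd8, at 22.3 kb.

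**Figure D3:**
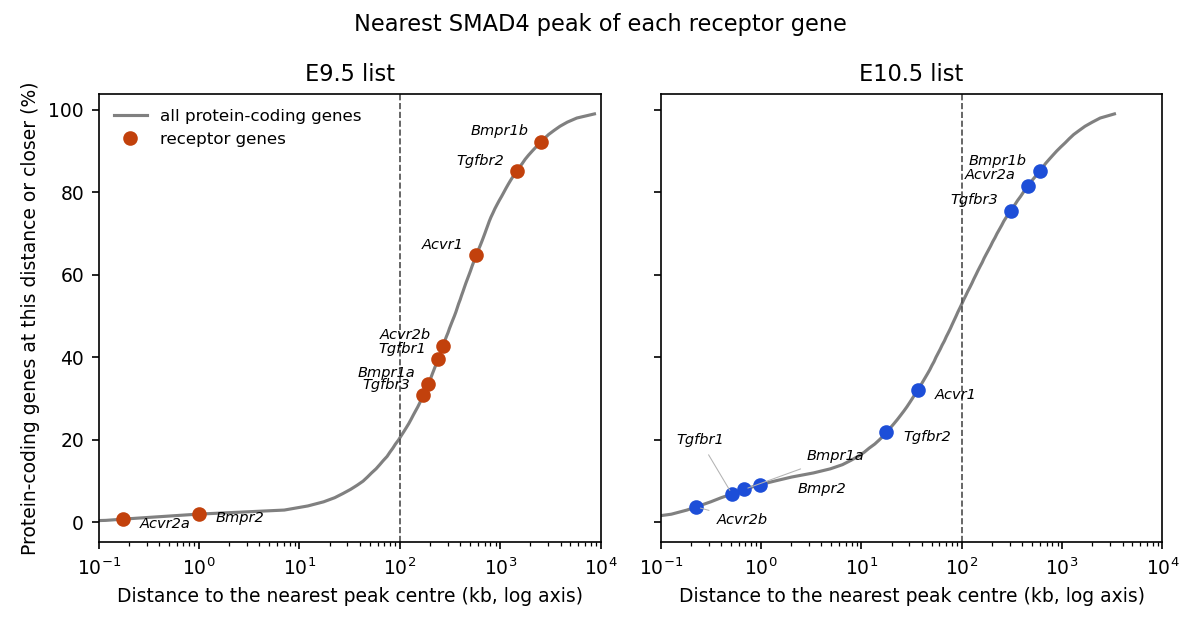
Distance from the 5′ end of each receptor gene to the nearest peak centre in kb (logarithmic axis) against the percentage of protein-coding genes at that distance or closer (grey line: all 22350 genes). At E10.5, 4 members lie within 1 kb of a peak centre, while Bmpr1b, Acvr2a and Tgfbr3 lie beyond 300 kb.

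Over the 9 genes, the median distance to the nearest E9.5 peak was 241 kb (all protein-coding genes: 350 kb), and that to the nearest E10.5 peak was 17.7 kb (all: 87.8 kb). At E10.5 they were at 0.227 kb (Acvr2b), 0.514 kb (Tgfbr1), 0.676 kb (Bmpr1a) and 0.976 kb (Bmpr2), then at 17.7 kb (Tgfbr2) and 36.3 kb (Acvr1), and finally at 308 kb (Tgfbr3), 458 kb (Acvr2a) and 596 kb (Bmpr1b). Of these genes, Tgfbr1, Tgfbr2, Acvr2a and Bmpr1b had 0 further protein-coding 5′ ends within 100 kb. Acvr2b had the most, with 5.

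**Figure D4:**
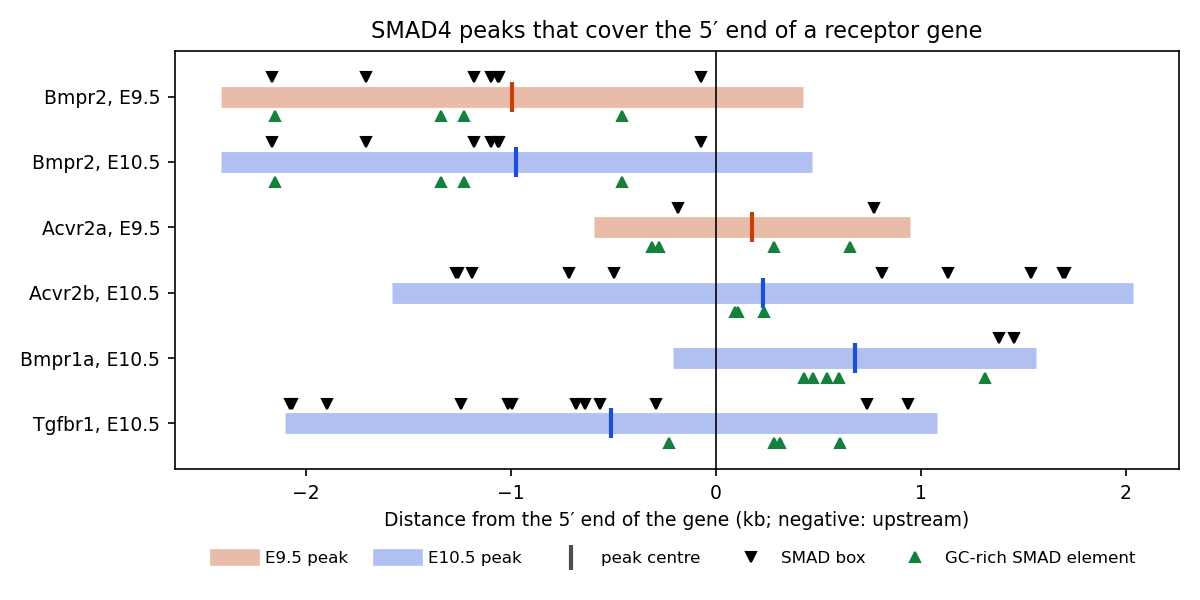
Extent of the 6 peaks that cover the 5′ end of a receptor gene, as distance from that 5′ end in kb, with the peak centre (vertical bar), SMAD boxes (black) and GC-rich SMAD elements (green). The Bmpr2 intervals of both stages coincide and lie mostly upstream, while the Acvr2a, Acvr2b and Bmpr1a peaks are centred downstream of the 5′ end.

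The members' peaks were also compared with their lists for sequences that the choice of genes did not use. In the central 300 bp, a SMAD box was present in 1 of 2 members' peaks in the earlier list and 3 of 8 in the later one (all peaks: 60.6% and 53.2%). The GC-rich element was present in 1 of 2 and 3 of 8 (all peaks: 12.6% and 13.1%). Its share among all peaks at 5′ ends or of like GC content was not counted, here or for the whole peak. The difference from all peaks is therefore no result about the receptor genes. At the 5′ ends of Acvr2a, Acvr2b and Bmpr1a the central sequence held the GC-rich element without a SMAD box, and at those of Bmpr2 and Tgfbr1 it held SMAD boxes without the GC-rich element. In the whole peak, a SMAD box was present in all 10 (all peaks: 94% and 98.2%) and the GC-rich element in 2 of 2 and 5 of 8 (all peaks: 26.1% and 44%). The palindrome GTCTAGAC and a bipartite element, in which a GC-rich part is followed after 5 bases by GTCT, were in none of the 10 peaks. They were rare in the lists as well, with the palindrome in 4.53% and 3.62% and the bipartite element in 1.69% and 2.76% of all whole peaks (earlier and later list). All sequences were searched on both strands, and the extended SMAD box contains the SMAD box, so that these counts overlap.

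Peaks at a 5′ end had a higher GC content than the median of their list. The central 300 bp had a GC content of 74.3% (E9.5) and 72.3% (E10.5) at Bmpr2, 76.0% at Acvr2a, 72.7% at Acvr2b, 79.7% at Bmpr1a and 59.3% at Tgfbr1. The medians over all peaks were 53.0% at E9.5 and 55.0% at E10.5. Of the peaks farther away, that in Ldb3 had a GC content of 76.0%, while those of Acvr1, Acvr2b (upstream) and Tgfbr2 had 46.3%, 53.0% and 50%. The ratio of observed to expected CpG dinucleotides was between 0.770 (Tgfbr1) and 1.11 (Acvr2a) in the peaks at a 5′ end, and 0.187, 0.193 and 0.321 in the last 3. The peak in Ldb3 had a ratio of 0.744, close to that at Tgfbr1. Each peak at a 5′ end thus had a higher ratio than each peak farther away, though only narrowly for the pair of Tgfbr1 and Ldb3. By GC content the 10 peaks were not separated in this way, since it was 76.0% in Ldb3 and 59.3% at Tgfbr1. The medians of the lists were 0.277 and 0.329.

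The promoters of the members, taken as 250 bases before to 50 after the 5′ end on mm9, had a median CpG ratio of 0.833, beside 0.534 for 22345 protein-coding promoters. The ratio was highest at Acvr2a (1.14). Bmpr2 (0.654) and the members without a peak, Bmpr1b (0.666) and Tgfbr3 (0.556), had the lowest ratios of the 9, and that of Tgfbr3 was close to the median of all promoters. Of the 8 members with a ratio of 0.6 or more, 2 had a peak within 5 kb at E9.5, and 4 at E10.5. Of all 10111 genes with such promoters, 4.33% and 20.5% had one, and of the 12234 genes below this ratio 1.23% and 6.87%. The ratio of 0.6 was set after the data had been seen, and the part of CpG content in the peaks was not tested. A SMAD box was present in the promoters of Acvr1, Bmpr2 and Acvr2a (48.5% of all promoters) and the GC-rich element in those of Acvr1, Tgfbr1 and Tgfbr2 (14.3%). Acvr1 thus had both sequences at its start without a peak there.

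To place the receptors within their pathway, genes of the other steps were counted in the same way. All counts within 100 kb stand beside 20.5% of all genes for the earlier and 52.9% for the later list, and several, such as 3 of 7 and 3 of 6 in the later list, are near that share. Of 4 further receptor genes of the superfamily (Acvr1b, Acvr1c, Acvrl1 and Amhr2), 1 (Amhr2) had a peak within 100 kb in the earlier list and 3 (all but Acvr1c) in the later one, and 0 had one within 5 kb. Acvr1b and Acvrl1 are neighbours whose windows overlap, with the same best E10.5 score of 91.2. Of 6 genes for co-receptors and the pseudoreceptor Bambi, 2 had a peak at the earlier and 5 at the later stage. Upstream of the receptors, these numbers were 1 and 3 of 7 BMP and GDF ligand genes, and 1 and 5 of 6 TGFβ and activin ligand genes. For secreted antagonists they were 4 and 4 of 6.

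Downstream of the receptors, 0 of 6 genes for receptor SMADs and SMAD4 had a peak at E9.5, and 3 at E10.5. Of 7 genes of intracellular feedback, such as the inhibitory Smad6 and Smad7, 6 had a peak at the earlier and 7 at the later stage, and of 5 BMP target genes 4 and 5. Within 5 kb of the 5′ end, the E9.5 counts were 2 of 4 for type II receptors, 0 of 4 for type I receptors, 6 of 7 for feedback genes and 4 of 5 for target genes, beside 2.64% of all genes. In the later list, type II and type I receptors had the same count within 5 kb, 2 of 4 each, feedback genes had 5 of 7 and target genes 5 of 5, beside 13% of all genes. Of the other lists, the counts within 5 kb in the earlier and later list were 0 and 4 of 6 for TGFβ and activin ligands, 0 and 3 of 6 for receptor SMADs and SMAD4, 2 and 2 of 6 for antagonists, 1 and 1 of 7 for BMP and GDF ligands, and 1 and 1 of 6 for co-receptors and Bambi. These lists are small, were chosen with results of these data known, and were not tested against each other.

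**Figure D5:**
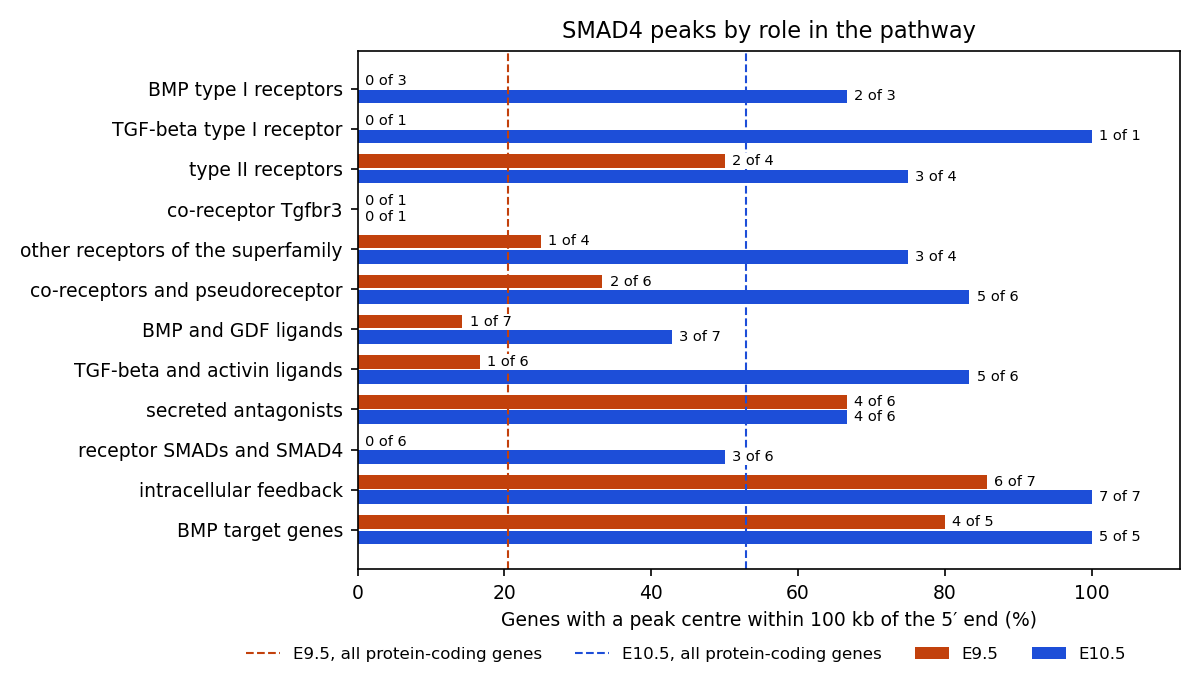
Percentage of genes with a peak centre within 100 kb of the 5′ end by role in the pathway, with the number of genes beside each bar and the share of all protein-coding genes as dashed lines (20.5% at E9.5, 52.9% at E10.5). The upper 4 groups hold the 9 members, and among these groups only the type II receptors have E9.5 peaks, at 2 of 4 genes. Of the further receptor genes 1 of 4 (Amhr2) has one, and of co-receptors and Bambi 2 of 6. The groups are small and were not tested against each other.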

How the data were processed

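SMAD4 ChIP and input samples of 2 stages (2 replicates each) were sequenced by the authors. Reads were aligned to mm9 with Bowtie 1.1.0, the authors ran MACS 1.4 with a permissive threshold on each replicate and its input, and combined the replicates with MSPC, keeping replicated peaks. The deposited lists hold position and a score without a named unit; the study's methods say that each peak kept its best MACS p-value. Scores served only for ranks and thresholds. The depth of the libraries is not given in the sources used here.

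Lists were read as BED files (1-based positions printed) and compared with the mm9 genome (NCBIM37) and GENCODE vM1, with 0 peaks past a chromosome end. Python 3.11.15, NumPy 2.4.6, pandas 2.3.3, pysam 0.24.0 and Matplotlib 3.10.9 were used. Protein-coding genes on chromosomes with peaks formed the background. Peaks sharing at least 1 bp counted as overlapping. Distances run from the 5′ end of the gene record to the peak centre. Window, overlap and SMAD box searches were checked on simulated data, and the searches for the other sequences were not. The window check applied the same distance rule as the search itself. Every member and each of its peaks is given, as set by the rule for named genes. The members, gene lists and rules were chosen with earlier results of these data known, so no p-value is given. Alternatives covered distance, score, list length, transcript starts, overlap and sequence window.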

Additional observations from a re-analysis of the deposited data

How the results depend on the processing

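Of 54 values recomputed under other settings, 41 were within 1.5 times the reported value and 13 were not. This tally is no measure of stability, since some values could not move. The outermost peak in the window lay at -45.9 kb, so a distance of 50 kb had to give the same counts. With counts this small, a fall from 6 to 4 members also stayed within the bound. With a distance of 200 kb, 4 members had an E9.5 peak (Bmpr1a and Tgfbr3 in addition; all genes: 34.5%), with 4 E9.5 and 14 E10.5 peaks in all. With peaks scored 100 or more, 1 member (Bmpr2) had an E9.5 peak and 2 members (Bmpr2 and Acvr2b) an E10.5 peak, with 1 and 2 peaks. With the E10.5 list shortened to the length of the E9.5 list, 4 E10.5 peaks remained within 100 kb of a member and members with such a peak went from 6 to 4 (without Acvr1 and Tgfbr2; all genes: 28%), and at a distance of 5 kb, added after seeing the data, likewise 4. CAGAC was present in 2 E9.5 and 8 E10.5 peaks when the whole peak was searched (all peaks: 94% and 98.2%), and in 0 and 0 with 100 bp around the centre (all peaks: 27.5% and 22%). These settings change the area, the number of peaks or the length searched by construction. Bmpr2 kept its overlapping pair under both definitions of overlap tried in place of 1 bp. Its intervals in the 2 lists are nearly the same, and no other member has a peak in both lists. These definitions could therefore not change the result. No paired analysis was possible because the replicates of a stage had been combined in 1 list, and for the same reason no replicate could be left out. The depth is unknown, and its part in which peaks were called was not tested.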
